A study of Mus musculus with 6 samples.

Results

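The expression of 9 genes that mark the distal nephron and collecting duct was measured in mouse primary renal tubular epithelial cells (TECs) after Sox9 knockdown. The 9 genes, Umod, Slc12a1, Slc12a3, Scnn1a, Aqp2, Aqp3, Calb1, Kcnj1 and Cdh16, were chosen by name from the 30315 genes listed. Each is listed once, and the rule uses their names only, not their values, although the choice was made with earlier results of these data known. The question was which of them are still expressed in culture, and whether they change when Sox9 is silenced.

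The nephron is built of segments that each carry their own transporters. After the proximal tubule, the thick ascending limb reabsorbs sodium, potassium and chloride and secretes uromodulin, the distal convoluted tubule takes up sodium with chloride and handles calcium and magnesium, and the connecting tubule and collecting duct fine-tune sodium through the epithelial sodium channel and water through aquaporins. Segment-specific transporters are commonly lost when tubule cells are dissociated and grown on plastic, whereas general epithelial genes such as keratins are usually kept.

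The cells were TECs of C57BL/6 mice, transfected with EndoFectin Max and exposed to hypoxia/reoxygenation (H/R), a model of ischemia-reperfusion injury. Sox9 was silenced with the small interfering RNA siSox9 in 3 of the 6 libraries, and the control siRNA siNC was used for the other 3. In every library the siRNA was given 12 h before H/R, which was 6 h at 1% oxygen in medium without glucose followed by 18 h of reoxygenation, so no group without H/R or without siRNA was compared. The labels do not say which tubule segments were isolated, how many mice were used, or whether replicates were separate cultures, so p-values measure only the spread between these libraries.

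Values are FPKM, which are reads scaled to exon length and to the reads of the library. The libraries held 23893197 to 25725743 reads, as recovered from the FPKM values, and 1 read on 1 kb of exons was 0.0389 to 0.0419 FPKM. A signal of 3 reads was taken as the smallest that can be told from 0, which is 0.117 to 0.126 FPKM at 1 kb. Sox9 had 8.93, 8.61 and 9.07 FPKM with siSox9 and 25.7, 26.5 and 25.6 FPKM with siNC, or 34.2% of the siNC mean. The RNA Gm23935 took 6.35% of all FPKM in siNC replicate 3 and 3.72% in siNC replicate 2, and mt-Co1 was the highest gene in the other 4 libraries.

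Most of the 9 genes were close to undetected. Only Cdh16 and Scnn1a reached a mean of 1 FPKM over the 6 libraries, and the other 7 genes together had 120 reads in all libraries, 58 with siSox9 and 62 with siNC. Cdh16 made up 95.02% of the summed FPKM of the 9 genes. In the order of mean FPKM per length, Cdh16 (115 FPKM) was followed by Scnn1a (5.86), Slc12a1 (0.0769), Aqp3 (0.0472), Umod (0.0221), Kcnj1 (0.0120), Slc12a3 (0.0109), Calb1 (0.00957) and Aqp2 (0.00493). The mean of Cdh16 was 19.7 times that of Scnn1a, and the mean of Scnn1a was 76.2 times that of Slc12a1. The ranges of the first 2 genes over the 6 libraries did not overlap with that of the next gene in this order, while from Slc12a1 downward each gene overlapped with the next.

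**Figure D1:**
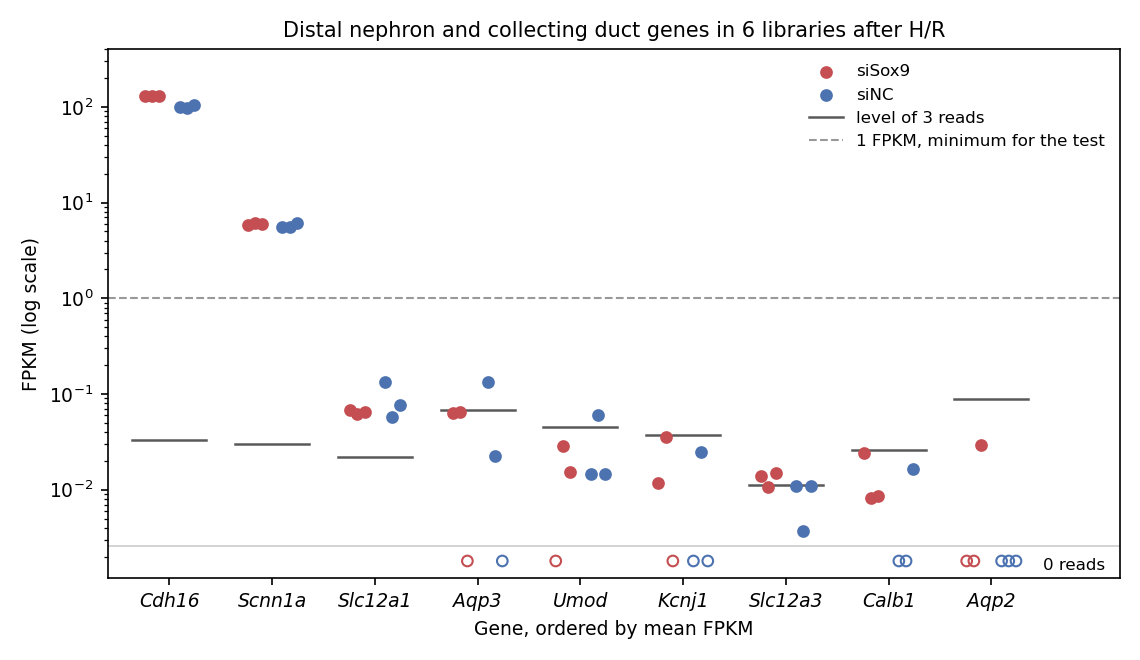
FPKM of the 9 genes in each library (log scale), with siSox9 and siNC libraries as separate points open circles at the bottom for libraries without a read, short lines at the level of 3 reads and a dashed line at 1 FPKM. Cdh16 lies between 98.1 and 130.0 FPKM and Scnn1a between 5.53 and 6.11 FPKM, while the other 7 genes lie at or under 0.133 FPKM.

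Differences between siSox9 and siNC were tested with limma on log2(FPKM + 1) with Benjamini-Hochberg adjustment, over the 12009 genes whose mean reached 1 FPKM. Of these, 30.4% passed an adjusted p under 0.05, 12.8% being higher and 17.6% lower with siSox9. Of the 9 genes, 2 entered this test and 1 passed it, being higher with siSox9. Without the minimum, when 28122 genes were tested and 9.6% passed, all 9 genes entered and the count was again 1. With so few genes, these counts say nothing about the 9 genes as a group.

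Cdh16 encodes kidney-specific cadherin (Ksp-cadherin), an adhesion protein on the lateral membrane of tubule cells that is found along the whole tubule and is strong in the distal nephron and collecting duct. It had 129.2, 129.8 and 130.0 FPKM with siSox9 and 100.8, 98.1 and 103.8 FPKM with siNC, which are 12601, 12500 and 11776 reads against 9495, 8987 and 9784. All 3 siSox9 libraries lay above all 3 siNC libraries, as they did for 20.2% of the genes tested. The means were 129.7 ± 0.424 FPKM (SD, n = 3) and 100.9 ± 2.84 FPKM (SD, n = 3), a ratio of 1.28. Limma put the log2 fold change at 0.36 (standard error 0.03, Benjamini-Hochberg adjusted p = 0.000307). Its 95% interval of 0.29 to 0.43 corresponds to a rise of 22.1% to 34.7% in FPKM + 1. In an exact two-sided permutation test of the 6 libraries p was 0.1, the smallest that 3 against 3 can give.

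Cdh16 was among the most abundant mRNAs of these cells, with 332 of the 30315 genes having a higher mean FPKM. The gene lies on the minus strand of chromosome 8 from 104601911 to 104624396 in GRCm38 and has 3792 bp of exons in GENCODE M21, none of them shared with the exons of another gene. The 3 tested genes whose profile of log2(FPKM + 1) over the 6 libraries was nearest to that of Cdh16 were Sphk1, Epn2 and B4galt7, with root-mean-square differences of 0.0108, 0.0125 and 0.0148 after each profile was centred on its mean. Sphk1, which encodes sphingosine kinase, had 8.10 FPKM with siSox9 and 6.05 FPKM with siNC. Epn2, an endocytic adaptor, had 20.4 and 15.6 FPKM, and B4galt7, a galactosyltransferase of proteoglycan synthesis, had 12.8 and 9.78 FPKM.

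Scnn1a encodes the alpha subunit of the epithelial sodium channel (ENaC), the route of aldosterone-regulated sodium uptake in principal cells. It had 5.90, 6.09 and 5.92 FPKM with siSox9 and 5.60, 5.53 and 6.11 FPKM with siNC, from 552 to 639 reads a library. The highest value was that of siNC replicate 3, so that the groups overlapped. The means were 5.97 ± 0.106 and 5.74 ± 0.315 FPKM (SD, n = 3 each), and limma put the log2 fold change at 0.05 (standard error 0.04, Benjamini-Hochberg adjusted p = 0.457). The 95% interval ran from -0.06 to 0.15, and the log2 fold change of 0.36 measured for Cdh16 lay outside it. In FPKM + 1 this is a fall of 3.90% to a rise of 11.2%, which somewhat understates changes of FPKM at this level. In an exact two-sided permutation test p was 0.4. Scnn1a lies on the plus strand of chromosome 6 from 125320659 to 125344943 and has 4132 bp of exons.

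**Figure D2:**
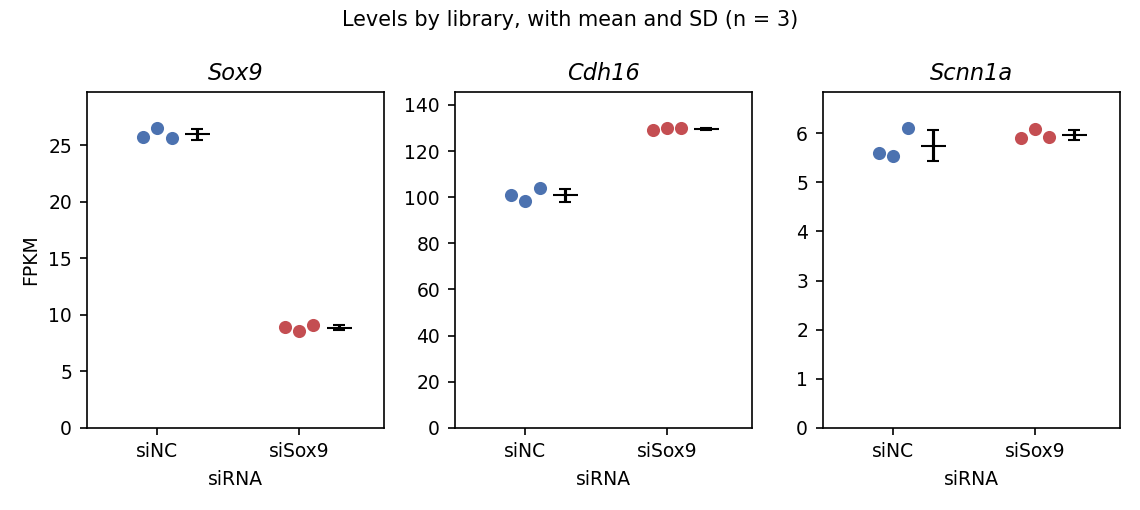
FPKM of the silenced gene Sox9 and of Cdh16 and Scnn1a in each library (points) with the mean and SD of each group, on linear axes that start at 0. The siSox9 libraries of Cdh16 lie at 129.2 to 130.0 FPKM against 98.1 to 103.8 FPKM with siNC, and those of Scnn1a overlap with siNC.

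The partners of Scnn1a in the channel were lower than Scnn1a in every library. Reads on Scnn1b, the beta subunit, were 54, 53 and 45 with siSox9 and 45, 44 and 36 with siNC, and Scnn1g, the gamma subunit, had 52, 39 and 56 reads against 42, 27 and 34. These are means of 0.768 and 0.644 FPKM for Scnn1b and of 0.658 and 0.466 FPKM for Scnn1g. Both were under the minimum of 1 FPKM, and without it their adjusted p from limma was 0.427 and 0.307. Both partners were singled out after their values were seen.

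The thick ascending limb genes among the 9 are Slc12a1, Umod and Kcnj1. Slc12a1 encodes NKCC2, the sodium-potassium-chloride cotransporter that is the target of loop diuretics, and was the highest of the 7 low genes. It had 10, 9 and 9 reads with siSox9, against 19, 8 and 11 with siNC, or 0.0675, 0.0615 and 0.0654 FPKM against 0.133, 0.0575 and 0.0768 FPKM. The value of siNC replicate 1 stood above the rest and siNC replicate 2 was the lowest, so the groups overlapped. In the fit without a minimum limma gave a log2 fold change of -0.03 (standard error 0.03, adjusted p = 0.6004), a scale that compresses values this low. The ratio of reads, corrected for library totals, was 0.725 with an exact 95% interval of 0.429 to 1.21, which covers counting error only. Slc12a1 lies on the plus strand of chromosome 2 from 125152505 to 125230002, with 5763 bp of exons.

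Umod encodes uromodulin, the most abundant protein of normal urine. It had 0, 2 and 1 reads with siSox9, against 1, 4 and 1 with siNC, and 3 reads on Umod correspond to 0.0422 to 0.0454 FPKM, so only siNC replicate 2, at 0.0600 FPKM, was above that limit. Umod lies on the minus strand of chromosome 7 from 119462711 to 119479282, and 539 bp of its exons overlap with those of the antisense gene Gm44588, so its few reads could belong to either if strand was not used in counting. Kcnj1 encodes ROMK, the apical potassium channel that recycles potassium for NKCC2 and secretes it in the collecting duct. It had 1, 3 and 0 reads with siSox9, against 0, 2 and 0 with siNC, with 3 libraries at 0.

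The sequence around the start of Umod is shown because its promoter window was the only one of the 6 available for the 9 genes to hold the letters that SOX proteins are known to bind. RefSeq windows of GRCm38.p6, from 250 bases before to 50 bases after the RefSeq start, were matched for 6 of the 9 genes, which are Umod, Slc12a1, Slc12a3, Aqp2, Aqp3 and Kcnj1. Among the motifs searched on both strands were the SOX motif AACAAT and the TATA box TATAAA, which occur in 10.7% and 13.6% of 32851 promoter windows. Capitals mark the motif in 30 bases of the minus strand, read 5′ to 3′. The SOX motif begins at position -9, counted from the RefSeq start of Umod, which lies inside the GENCODE M21 coordinates given above, so that the motif is within the gene by that annotation.
Umod SOX motif, chr7:119479254-119479283: tacccccacagaAACAATctcagagggcag
TATAAA was found in the windows of Aqp3 and Slc12a3. A match of letters does not show binding, and at 9 reads over all libraries no change of Umod could be measured. With 6 windows searched, 1 match beside 10.7% of all windows says nothing about these genes as a group. Cdh16, which passed the test, had no window to search.

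The distal convoluted tubule genes were Slc12a3 and Calb1. Slc12a3 encodes NCC, the sodium-chloride cotransporter that thiazides block, and had 4, 3 and 4 reads with siSox9, against 3, 1 and 3 with siNC. These 18 reads gave a ratio of 1.55 between the groups, with an exact 95% interval of 0.548 to 4.71 for counting error. The groups overlapped and the adjusted p in the limma fit without a minimum was 0.811. Calb1 encodes calbindin-D28k, a calcium-binding protein of the distal convoluted and connecting tubule. It had 3, 1 and 1 reads against 0, 0 and 2, at or under the limit of 3 reads in every library.

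Neither aquaporin of the principal cell was expressed at a level that could be compared. Aqp2, the vasopressin-regulated water channel of the apical membrane, had a single read in the 6 libraries, in siSox9 replicate 3, where 3 reads would have been 0.0885 FPKM. Aqp3, the water channel of the basolateral membrane, had 3, 3 and 0 reads with siSox9, against 6, 1 and 0 with siNC, so that only siNC replicate 1, at 0.132 FPKM, was above the limit. In none of the 7 low genes did the groups separate, and their adjusted p in the limma fit without a minimum ranged from 0.6004 to 0.936. Per library the 7 genes together had 21, 21 and 16 reads with siSox9, against 29, 16 and 17 with siNC. A change was not detectable at this depth, which is different from no change, and in bulk RNA fewer cells of a type and less RNA per cell cannot be told apart.

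To place the 9 genes among their segments, 94 genes of the distal nephron and collecting duct were examined in 5 lists, which hold the 9 genes too. The lists were chosen with earlier results of these data known, so their shares of called genes describe the lists only. Of the 90 genes found in the table, 41 reached a mean of 1 FPKM and 26 were under 0.1 FPKM, of which 3 had no read in any library (Atp6v1g3, Slc26a4 and Hmx2). Of the 41 tested, 5 rose and 14 fell with siSox9, which is 46.3% beside 30.4% of all genes tested, with a median log2 fold change of -0.12 beside -0.01 for all genes. When values were centred on the median of each library, 7 rose and 12 fell, and over all genes 1959 rose and 1765 fell, against 1532 and 2118 without centring. Without the 9 genes themselves, 4 rose and 14 fell among 39 tested.

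**Figure D3:**
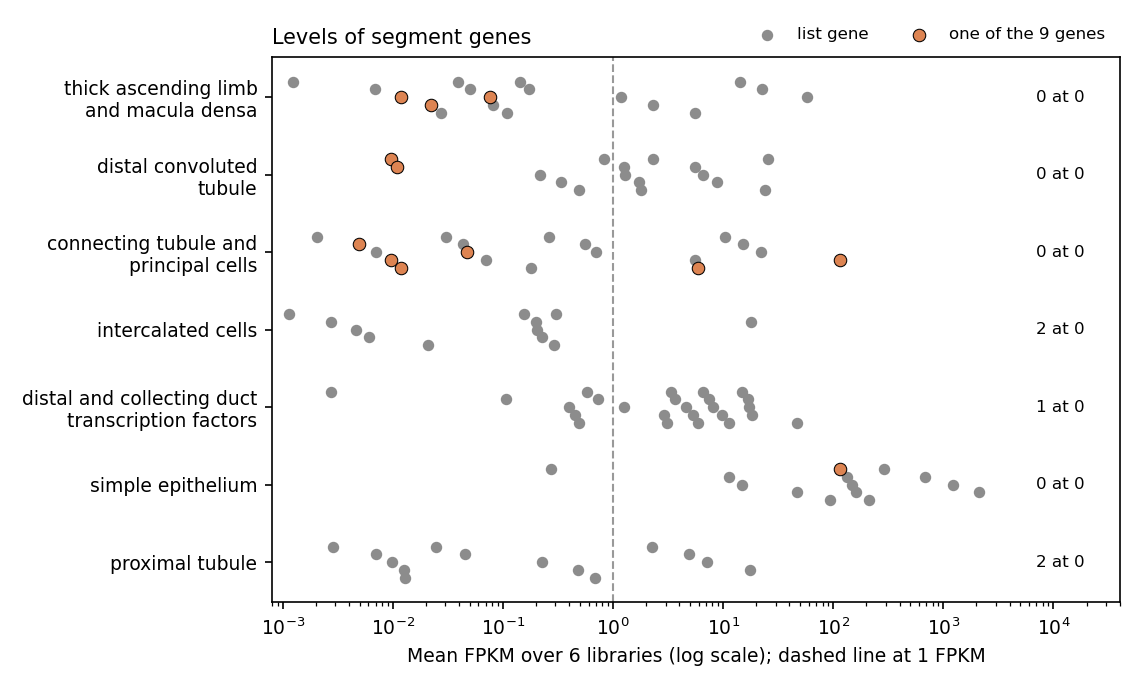
Mean FPKM over the 6 libraries of each gene in the segment lists (log scale), with the 9 genes in orange, the dashed line at 1 FPKM and the number of genes without a read at the right. Every list shown other than simple epithelium holds genes under 0.1 FPKM, whereas 13 of 14 simple epithelium genes lie above 1 FPKM.

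In the thick ascending limb and macula densa list, 6 of 18 genes were tested, 1 rose, 4 fell and 1 did not pass, with a median of -0.33. This is 83.3% of only 6 genes, beside 30.4% of all genes tested. The genes that fell include both claudins that form the paracellular magnesium and calcium pathway. Cldn16 had 4.08, 4.80 and 4.21 FPKM with siSox9 and 6.32, 6.28 and 7.41 FPKM with siNC (log2 fold change -0.52, standard error 0.08, adjusted p = 0.00272 from limma). Its 3 siSox9 libraries all lay below the siNC libraries, and the groups did not overlap, in either direction, in 46.3% of all genes tested. Cldn19 had 0.925 FPKM with siSox9 and 1.45 FPKM with siNC (log2 fold change -0.35, adjusted p = 0.0155 from limma), but its call was lost without siSox9 replicate 2 (adjusted p = 0.0547) and without siNC replicate 2 (0.0532), as it was without the minimum of 1 FPKM (0.0508). Cldn19 shares 90 bp of exon with the antisense gene Gm12927.

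Stk39, named after its values were seen, encodes the kinase SPAK that activates NKCC2 and NCC, and it fell from 15.8 to 12.5 FPKM (log2 fold change -0.31). Ptgs2, which encodes cyclooxygenase-2, is kept in the macula densa but is also induced by inflammation and injury in many cell types. It had 64.8, 64.0 and 70.6 FPKM with siSox9 and 49.1, 51.4 and 47.8 FPKM with siNC, and rose (log2 fold change 0.42, standard error 0.05, adjusted p = 0.000869 from limma). Levels differed widely within the list, as 9 of its 18 genes had a mean under 0.1 FPKM over the 6 libraries. Among these were Umod, Slc12a1, Kcnj1, Cldn10 and Nos1. Bsnd, Egf and Ptger3 had means of 0.1095, 0.142 and 0.174 FPKM, while Cldn16 and Cldn19 had 5.52 and 1.19 FPKM.

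In the distal convoluted tubule list, 10 of 16 genes were tested, of which 2 rose, 3 fell and 5 did not pass, with a median of -0.11. This is 50% of only 10 genes, beside 30.4% of all genes tested. Both genes that rose belong to magnesium transport. Cnnm2, a magnesium regulator of the basolateral membrane, had 2.46, 1.93 and 2.01 FPKM with siSox9 and 1.43, 1.21 and 1.24 FPKM with siNC (log2 fold change 0.45, adjusted p = 0.00709 from limma). Trpm7, a magnesium-permeable channel with a kinase domain that most cells express, had 9.40 against 8.17 FPKM (log2 fold change 0.18, adjusted p = 0.0120 from limma). Trpm6, the magnesium channel of this segment, had 2.18 against 2.46 FPKM and did not pass.

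The 3 genes of this list that fell are also used by many cells. Cul3, the ubiquitin ligase scaffold that with KLHL3 degrades WNK kinases, had 24.2 FPKM with siSox9 and 27.4 FPKM with siNC (log2 fold change -0.17, adjusted p = 0.00406 from limma). Atp2b4, a plasma membrane calcium pump, had 1.54 against 2.03 FPKM (log2 fold change -0.26, adjusted p = 0.0175 from limma). Atp2b1, another calcium pump, had 6.18 against 6.92 FPKM (log2 fold change -0.14, adjusted p = 0.0462 from limma). With FPKM rescaled to TPM none of the 3 passed, with adjusted p of 0.0818, 0.0615 and 0.265, while Cnnm2 and Trpm7 did. The call of Atp2b1 was lost without any 1 library other than siNC replicate 3 (adjusted p = 0.0787 to 0.119 from limma), and that of Atp2b4 without siSox9 replicate 2 (0.0560) or 3 (0.0523). Without siSox9 replicate 2 the list had 2 genes that rose and 1 that fell.

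In the connecting tubule and principal cell list, 6 of 19 genes were tested, 2 rose, 2 fell and 2 did not pass, with a median of -0.03. This is 66.7% of only 6 genes, beside 30.4% of all genes tested. Prss8 rose most. It encodes prostasin, a membrane-anchored serine protease that takes part in ENaC activation and is made by many epithelia. Prss8 had 29.1, 28.8 and 26.2 FPKM with siSox9 and 17.3, 15.3 and 15.8 FPKM with siNC, with no overlap of the groups. It rose by a log2 fold change of 0.76 (limma, standard error 0.06, adjusted p = 0.000191), and it shares 122 bp of exon with Kat8 on the other strand. The second gene that rose was Cdh16.

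The 2 principal cell genes that fell act on ENaC in opposite ways. Sgk1, the aldosterone-induced kinase that keeps ENaC at the membrane, had 14.2 ± 0.390 FPKM with siSox9 and 16.0 ± 1.02 FPKM with siNC (SD, n = 3 each), with an adjusted p of 0.0475 from limma. Nedd4l, the ubiquitin ligase that removes ENaC from the membrane, had 5.18 ± 0.101 and 5.84 ± 0.110 FPKM (SD, n = 3 each), with an adjusted p of 0.0223 from limma. Neither passed with TPM (adjusted p = 0.217 and 0.158 from limma) or with quantile-normalized values (0.0546 and 0.0530). The call of Sgk1 was also lost without siSox9 replicate 1 (0.135), 2 (0.120) or 3 (0.0704) and without siNC replicate 1 (0.103) or 2 (0.126). That of Nedd4l was lost without siSox9 replicate 1 (0.0594) or 2 (0.0806) and without siNC replicate 1 (0.0521) or 3 (0.0747). Without siSox9 replicate 1, siSox9 replicate 2 or siNC replicate 1, therefore, 2 genes of the list rose and none fell. Hsd11b2, which shields the mineralocorticoid receptor from glucocorticoids, had 10.02 against 10.8 FPKM and did not pass. Nr3c2, the mineralocorticoid receptor itself, had 0.255 and 0.270 FPKM, and Avpr2, the vasopressin receptor, had under 0.01 FPKM in both groups.

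Intercalated cells, the acid and base secreting cells of the collecting duct, left little signal. Of 14 genes in the table only Car2 was tested, a cytosolic carbonic anhydrase that other cells also use. Car2 had 16.8, 17.3 and 17.6 FPKM with siSox9 and 17.1, 20.1 and 18.5 FPKM with siNC (adjusted p = 0.233 from limma), and it passed only without siNC replicate 1, at 0.0449. The proton pump subunit Atp6v1g3 and the anion exchanger pendrin (Slc26a4) had no read, and Foxi1, the transcription factor of these cells, was under 0.01 FPKM in both groups. Other genes of the list had reads in every library. Slc4a9 had 76, 70 and 48 reads with siSox9, against 24, 46 and 28 with siNC, and Kit had 31, 39 and 39 against 55, 43 and 58. Both were named after their values were seen and lay under the minimum, and without it their adjusted p from limma was 0.116 and 0.205.

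Of the 26 transcription factors of the distal nephron and collecting duct, 18 reached 1 FPKM and were tested. Of these 18, none rose and 5 fell, with a median of -0.13. This is 27.8%, beside 30.4% of all genes tested. Limma voom on recovered reads called 9 of 17, all lower, beside 3707 of 10479 genes in that fit. Elf3, an epithelial ETS factor, had 8.87, 7.82 and 7.91 FPKM with siSox9 and 11.1, 10.8 and 11.6 FPKM with siNC (log2 fold change -0.40, standard error 0.05, adjusted p = 0.00172 from limma). Emx2, a homeobox factor of the ureteric bud lineage, had 16.3, 15.9 and 16.1 FPKM against 18.8, 20.4 and 21.8 FPKM (log2 fold change -0.32, adjusted p = 0.00464 from limma). In both genes every siSox9 library was below every siNC library, and the groups did not overlap, in either direction, in 46.3% of all genes tested. Elf3 and Emx2 share 162 bp and 264 bp of exon with the antisense genes Gm26642 and Emx2os.

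Ehf, another epithelial ETS factor, had 3.13 against 4.13 FPKM (log2 fold change -0.31, adjusted p = 0.0129 from limma). Tfap2b and Mecom, named after their values were seen, also fell, by 0.20 and 0.25 on the log2 scale. Grhl2 and Tfcp2l1, epithelial factors of the collecting duct, had 7.40 against 7.59 FPKM and 16.0 against 17.5 FPKM and did not pass.

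**Figure D4:**
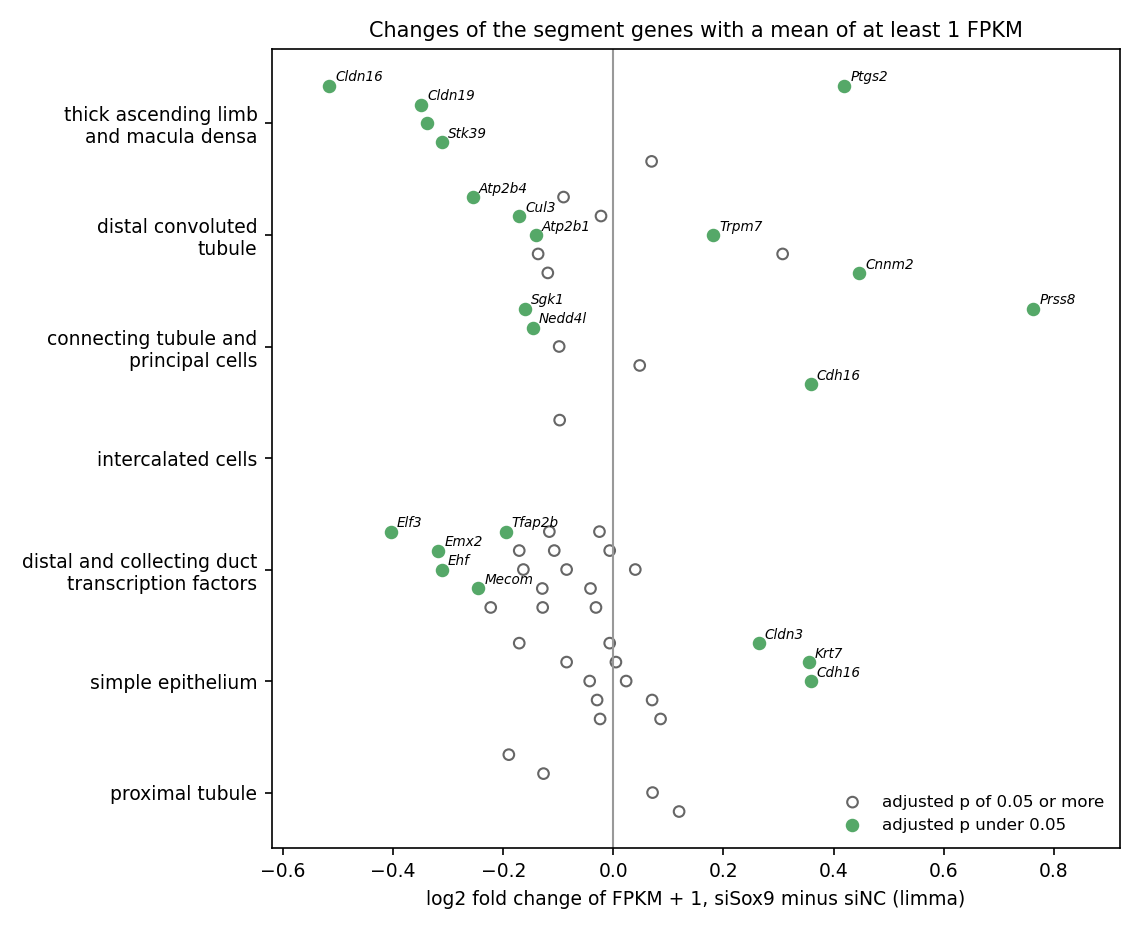
Log2 fold change of FPKM + 1 (siSox9 minus siNC) of each tested gene in the segment lists, with filled points for an adjusted p under 0.05 in limma, most of them labelled, and open points for the rest. Called genes lie on both sides of 0 in the first 3 lists, those among the transcription factors lie below 0, and those of simple epithelium, which include Cdh16, lie above it.

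The identity of the cells was read from lists of other cell types. Genes of the simple epithelium list were mostly abundant, with Krt8 at 2123 FPKM with siSox9 and 2089 FPKM with siNC. Not all of them are shared by all tubule segments, as the list also holds Krt7, Krt19, Cldn3, Cldn4, Cldn7 and Cldn8. Cldn4 had 702.9 against 662 FPKM and Krt19 had 284.5 against 293.1 FPKM, and neither passed. Cldn8 had 0.211 against 0.339 FPKM, under the minimum. Of the 14 genes, 13 were tested. Of these 3 rose and none fell, with a median of 0.00, which is 23.1% beside 30.4% of all genes tested. With limma voom, which could test 9 of them, 2 rose and 1 fell, beside 3707 of 10479 genes called in that fit. The 3 that rose in the main test were Cdh16, Krt7, a keratin of ducts (236 against 184 FPKM, log2 fold change 0.36, adjusted p = 0.000168 from limma), and the claudin Cldn3, named after its values were seen (161.0 against 133.9 FPKM). Cdh1 and Epcam had 160.5 against 163.8 FPKM and 132.1 against 134.6 FPKM and did not pass.

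Most proximal tubule genes were also under 1 FPKM. Of the 16 genes listed, 4 were tested and none passed, with the list summing to 32.0 to 34.3 FPKM with siSox9 and 31.5 to 35.1 FPKM with siNC. A single gene passed in each of 3 alternatives, being higher with quantile normalization and with limma voom and lower without siNC replicate 2. Its most abundant gene was Cdh6, a cadherin of the early and the injured proximal tubule, at 17.9 and 16.9 FPKM. The other tested genes were Ggt1 (6.77 against 7.50 FPKM), Gatm (4.54 against 5.29 FPKM) and Lrp2 (2.41 against 2.13 FPKM). Slc34a1, the phosphate cotransporter of this segment, had 0.00576 and 0 FPKM, and Slc22a12 and Kap had no read.

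In the main test the podocyte and leukocyte lists held called genes, and the endothelial list held none. The 6 podocyte genes summed to 15.5 to 16.9 FPKM with siSox9 and 21.9 to 22.9 FPKM with siNC. Of 3 tested, Podxl (7.48 against 11.6 FPKM, adjusted p = 0.000158) and Synpo (5.18 against 6.79 FPKM, adjusted p = 0.00636 from limma) fell, while the defining podocyte gene Nphs1 had no read. That is 66.7% of only 3 genes, beside 30.4% of all genes tested. The 6 leukocyte genes summed to 103.7 to 114.0 FPKM with siSox9 and 92.6 to 99.1 FPKM with siNC. Of 4 tested Lyz2 rose (83.4 against 71.9 FPKM, adjusted p = 0.0175 from limma, 0.0575 without the minimum), while Cd68 (11.8 against 10.9 FPKM), Csf1r (9.38 against 9.66 FPKM) and Adgre1 (2.43 against 2.22 FPKM) did not pass. That is 25% called, beside the same 30.4%. Ptprc, which all leukocytes carry, had 0.653 and 0.724 FPKM and Itgam 0.396 and 0.361 FPKM, both under the minimum.

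The 6 endothelial genes summed to 3.06 to 3.30 FPKM with siSox9 and 3.35 to 4.34 FPKM with siNC. Only Cdh5 reached the minimum and it did not pass, but without the minimum Emcn, named after its values were seen, was lower, with 0.690, 0.699 and 0.604 FPKM against 1.154, 1.011 and 1.079 FPKM (adjusted p = 0.0331 from limma). Pecam1 was also lower in the mean (0.570 against 0.677 FPKM). Kdr (0.509 against 0.418 FPKM), Tek (0.122 against 0.0889 FPKM) and Tie1 (0.186 against 0.171 FPKM) were higher in the mean, with overlapping groups. The part of podocyte, leukocyte or endothelial markers in the changes of Cdh16, Prss8 or Ptgs2 was not tested. In the fibroblast and urothelial lists 2 and 2 genes were tested and none passed, while with limma voom 1 fibroblast gene was lower. In the endothelial, fibroblast and urothelial lists the most abundant genes were Cdh5 at 1.16 against 1.37 FPKM, Acta2 at 686 against 727 FPKM and Krt20 at 40.8 FPKM in both groups.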

How the data were processed

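RNA-Seq of 6 libraries was analysed, 3 per group, with groups and replicate numbers taken from the sample titles. The table that the authors deposited holds FPKM for each gene in each library. The submitters' processing notes list Bowtie2 2.2.3, HISAT2 2.1.0, TopHat2 and the build mm9; however, 93.3% of 30246 matched genes have the positions of GENCODE M21, in GRCm38, whose coordinates are given. The counter and the use of strand are not given in the sources used here.

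Members and gene lists were chosen with earlier results of these data known. Whole reads were recovered from FPKM and GENCODE M21 exon lengths; 93.3% to 93.4% of values came out whole within 0.02 reads, and 27948 genes in all 6 libraries. Between libraries of a group the mean chi-square of reads per gene was 1.89 to 6.87, where sampling noise gives about 1, so none was a copy. The main test was limma 3.58.1 in R 4.3.3 (lmFit, eBayes with trend) on log2(FPKM + 1), for genes whose mean reached 1 FPKM, unpaired, with Benjamini-Hochberg adjusted p under 0.05. Fold changes on this scale understate those of low genes. Low members were fitted without the minimum. Intervals on reads are exact conditional binomial (Clopper-Pearson) at 95% and cover counting error only. On simulated data with 10487 genes, limma called 91 of 97 genes changed 2-fold and 77 of 98 changed by 0.5 on the log2 scale in the right direction, and 12 unchanged genes. The simulation used the same dispersion for every gene and far fewer changed genes than were called here. Its counts therefore do not measure performance on these libraries.

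Named were the 9 genes, Sox9, in each distal list the called genes without overlap (at most the 3 largest rises and 3 largest falls) and the most abundant gene, in each other list the most abundant gene and at most 2 called changes, and the 3 profiles nearest to a called member. Others are said to have been named after their values were seen or serve as values beside a result. Alternatives were a pseudocount of 0.1, no minimum, a minimum of 5 FPKM, rescaling to TPM, centring on medians, quantile normalization, a replicate block, limma voom on the recovered reads, and leaving out each library. Other steps used Python 3.11.15, with matplotlib 3.10.9, pandas 2.3.3, scipy 1.17.1 and numpy 2.4.6. The siRNA sequences and some genes that this rule selects are not reported here.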

Additional observations from a re-analysis of the deposited data

How the results depend on the processing

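Cdh16 was higher with siSox9 and passed in all 14 alternatives, with log2 fold changes of 0.34 to 0.39 and adjusted p of 8.47e-07 to 0.00325 (limma), and 1 of the 9 genes was called in each. Scnn1a passed in none (log2 fold change 0.03 to 0.09, adjusted p 0.202 to 0.741), nor did Slc12a1 in the 12 alternatives that could be fitted. Leaving out 1 library at a time gave 2424 to 3654 called genes, the lowest without siSox9 replicate 2, and 14 to 20 of the segment genes. Of those, 13 of 41 passed with TPM (5 higher, 8 lower), beside 2571 of 12009 genes. With limma voom on recovered reads 22 of 36 passed, beside 3707 of 10479 genes. Atp2b1 lost its call in 10 of 14 alternatives and Sgk1 in 10 of 14.

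Same-numbered libraries did not deviate together (correlations of 0.065, -0.050 and 0.008), and a fit blocked on the replicate number called 3262 genes and 18 segment genes, Cdh16 among them (adjusted p = 0.00259). The 7 low genes rest on 120 reads, so depth limits what can be said of them.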
